A study of Mus musculus with 7 samples.

Results

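The miR-181 family of the mouse was followed in vesicles released by visceral fat, through the 5p arms of its members mmu-miR-181a-5p, mmu-miR-181b-5p, mmu-miR-181c-5p and mmu-miR-181d-5p (mmu, for mouse, is left out below). The members were taken by name, not by any measured value, although earlier results of these data were known. All 4 were among the 820 miRNAs of the deposited table. Small RNA was sequenced from extracellular vesicles isolated from the epididymal white adipose tissue of male ApoE-/- mice, a whole-body knockout used as a model of atherosclerosis, given as 8 weeks old. Every mouse received a high-fat diet for 12 weeks, alone in the HFD group (4 libraries) or with nicotine at 2 mg/kg/day in the HFD+Ni group (3 libraries), so that the comparison asks what nicotine changes on top of the diet and the knockout that both groups share. No group on a normal diet and no ApoE-intact group enters the comparison, and the labels do not say whether a library came from 1 animal or from pooled animals, so p-values measure the spread between these libraries, which may be technical.

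A miRNA guides the silencing complex to messenger RNAs that pair with its seed, the bases near its 5′ end, so miRNAs with the same seed are grouped as a family. The miR-181 family is known in mouse for setting how strongly developing T cells respond to their antigen receptor and for roles in B cell and natural killer T cell development. In mouse endothelium, including that of fat, miR-181b is known to dampen NF-kB signalling and to affect insulin sensitivity, which is the background for looking at it in the vesicles of visceral fat.

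The mature sequences are shown because they set what the reads can tell apart. They are those of RefSeq on GRCm38.p6, where all 4 members matched by name, written 5′ to 3′ with the seed (bases 2 to 8) in capitals.
miR-181a-5p: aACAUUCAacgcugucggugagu
miR-181c-5p: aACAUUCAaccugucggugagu
miR-181b-5p: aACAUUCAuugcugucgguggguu
miR-181d-5p: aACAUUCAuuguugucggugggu

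The 4 members share the seed ACAUUCA and their first 8 bases, and no other of the 1679 mature mouse miRNA names in that RefSeq table has this seed. Behind the seed they fall into 2 pairs. miR-181b-5p and miR-181d-5p have 22 identical bases in their alignment and differ by 1 substitution, C12U (position counted from 1 at the 5′ end of miR-181b-5p), and by 1 base in length at the 3′ end. miR-181a-5p and miR-181c-5p also have 22 identical bases, with 1 base missing inside miR-181c-5p and no substitution. Between the pairs, miR-181a-5p and miR-181b-5p differ by the substitutions A9U, C10U and A21G.

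Each of miR-181a-5p and miR-181b-5p is made from a locus on chromosome 1 and another on chromosome 2, whereas miR-181c-5p and miR-181d-5p come from a single locus on chromosome 8. In GENCODE M21 on GRCm38, Mir181a-1 (chr1:137966455-137966541, plus strand) and Mir181b-1 (chr1:137966639-137966718, plus strand) lie 97 bases apart within an exon of the long non-coding RNA gene A430106G13Rik, in a stretch that is also intronic to Gm4258 and, on the minus strand, to Gm26936. Mir181a-2 (chr2:38852735-38852810, plus strand) and Mir181b-2 (chr2:38853830-38853918, plus strand) lie 1019 bases apart, within an intron of the nuclear receptor gene Nr6a1, which is read from the minus strand, and Mir181b-2 also overlaps an exon of the minus-strand transcript Gm44144. Mir181c (chr8:84178873-84178961, minus strand) and Mir181d (chr8:84178716-84178787, minus strand) lie 85 bases apart in an intron of Nanos3, on its strand. Mature 5p reads cannot be assigned to one of the 2 loci of miR-181a-5p or miR-181b-5p, because both loci give the same mature sequence.

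The 7 libraries held between 53626 and 1055902 miRNA reads. One read was worth 0.947 rpm (reads of a miRNA scaled to 1000000 miRNA reads per library) in HFD replicate 2, the deepest library, and 18.6 rpm in HFD+Ni replicate 1, the shallowest. All 8 miRNAs listed as adipose markers had a row, and their summed level was 16321 to 20503 rpm in HFD and 16072 to 21044 rpm in HFD+Ni; miR-193a-3p, miR-193b-3p and miR-335-3p were at 0 in at least 1 library. HFD+Ni replicate 1 stood apart by epithelial miRNAs, whose 6 markers summed to 45146 rpm there and to between 4813 and 13605 rpm in the other 6 libraries. In vesicles from bulk tissue, fewer vesicles from a cell type and less of a miRNA per vesicle cannot be told apart.

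miR-181a-5p was the most abundant member in every library, and its level in HFD+Ni spanned its whole range in HFD and beyond on both sides. It was at 458, 608, 366 and 792 rpm in HFD replicates 1 to 4, on 37, 642, 43 and 61 reads. In HFD+Ni replicates 1 to 3 it was at 280, 841 and 1143 rpm, on 15, 148 and 123 reads. HFD+Ni thus held both the lowest and the 2 highest libraries, and the groups overlapped. The group means were 556 ± 186 rpm (SD, n = 4) and 755 ± 438 rpm (SD, n = 3), which placed miR-181a-5p 78th of the 820 miRNAs by mean level.

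The libraries differed in miR-181a-5p by more than counting error. The 95% Poisson interval was 157 to 461 rpm in HFD+Ni replicate 1, 711 to 988 rpm in HFD+Ni replicate 2 and 950 to 1364 rpm in HFD+Ni replicate 3, so that the first did not overlap either of its group's other libraries. These intervals hold counting error alone, because copies made by PCR are not independent molecules. From the lowest to the highest library the level varied 4.09-fold.

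miR-181b-5p, the member studied in endothelium, was the steadiest of the family between libraries. It was at 148, 143, 128 and 247 rpm in HFD replicates 1 to 4 and at 186, 125 and 232 rpm in HFD+Ni replicates 1 to 3. The highest library was HFD replicate 4 and the lowest HFD+Ni replicate 2, and the groups overlapped. Its means were 166 ± 54.2 rpm (SD, n = 4) and 181.3 ± 53.8 rpm (SD, n = 3), and the Poisson intervals of all 7 libraries had a common range, from 150 to 168 rpm. With 10 to 25 reads in each library but HFD replicate 2, which had 151, these intervals were wide, and the 1.97-fold span between the highest and the lowest library was within them.

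miR-181c-5p was scarce, and its values rest on very few reads. It had 3, 11, 1 and 2 reads in HFD replicates 1 to 4, which is 37.1, 10.4, 8.51 and 26.0 rpm. Each HFD+Ni library had 4 reads, which is 74.6, 22.7 and 37.2 rpm in replicates 1 to 3. The highest value thus came from the shallowest library, and the groups overlapped. The means were 20.5 ± 13.6 rpm (SD, n = 4) and 44.8 ± 26.8 rpm (SD, n = 3), a ratio of 2.19, with an interval from 20.3 to 191 rpm in the highest library alone.

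miR-181d-5p followed miR-181b-5p almost read for read. It was at 136, 125, 128 and 247 rpm in HFD replicates 1 to 4 and at 186, 114 and 204 rpm in HFD+Ni replicates 1 to 3, with means of 159 ± 58.7 rpm (SD, n = 4) and 168 ± 48.0 rpm (SD, n = 3). HFD replicate 4 was again the highest library and HFD+Ni replicate 2 again the lowest.

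**Figure D1:**
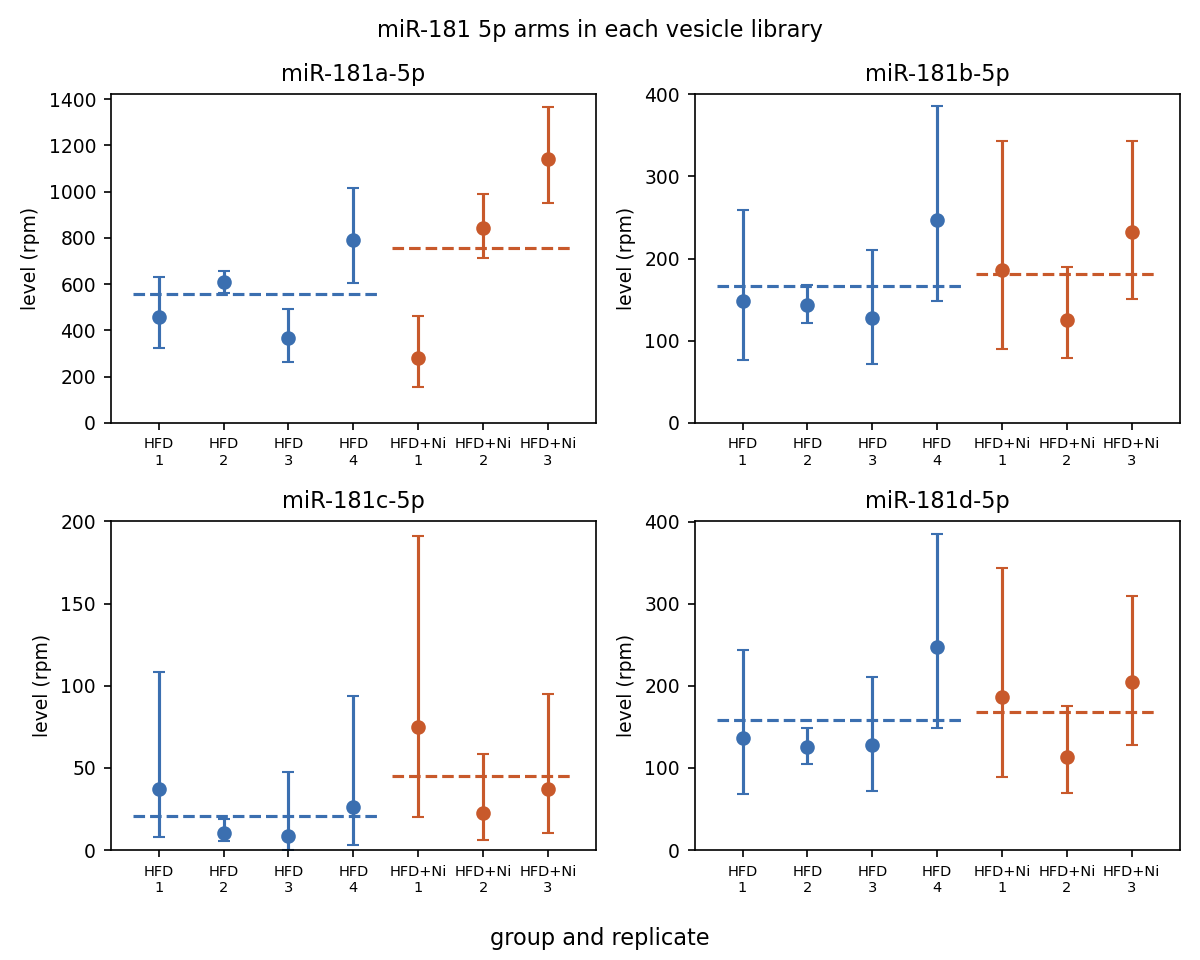
Level of each miR-181 5p arm in rpm (y axis, from 0) in each of the 7 libraries (x axis), with 95% Poisson intervals of the reads as bars and the group mean as a dashed line. The groups overlap for all 4 members, and for miR-181a-5p HFD+Ni replicates 1 and 3 lie at the bottom and the top, at 280 and 1143 rpm.

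The reads of miR-181b-5p and miR-181d-5p were equal in 3 libraries and higher for miR-181b-5p in the other 4, by 1, 19, 2 and 3 reads in HFD replicates 1 and 2 and HFD+Ni replicates 2 and 3. In none of the libraries did miR-181d-5p have more reads. Summed over the 7 libraries there were 254 reads of miR-181b-5p and 229 of miR-181d-5p, 90.2% as many. These are the 2 mature sequences that differ inside only by C12U, although their loci lie on different chromosomes. How reads that fit both sequences were counted is not given in the sources used here, and the part of shared reads in this likeness was not tested. The values of both are therefore uncertain, and they are not separate evidence in what follows.

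**Figure D2:**
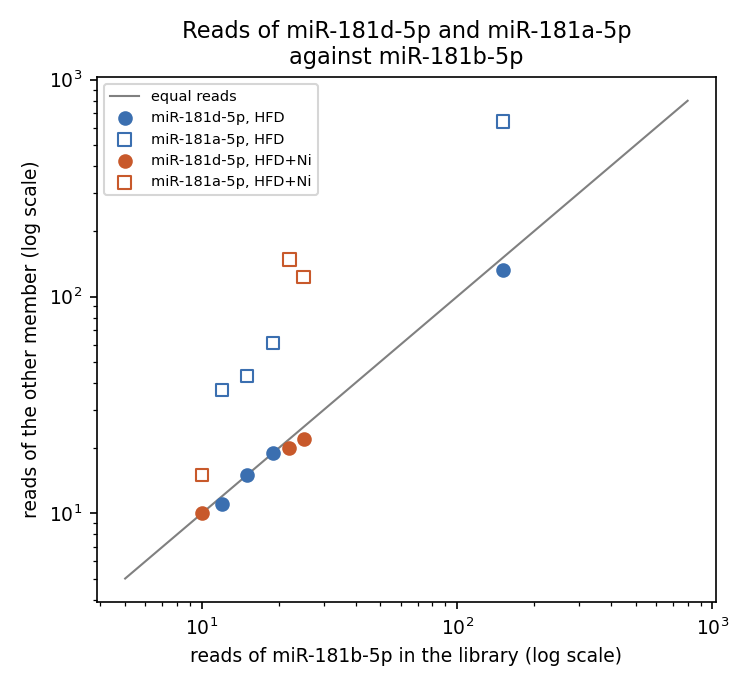
Reads of miR-181d-5p (filled circles) and of miR-181a-5p (open squares) in each library against reads of miR-181b-5p, both axes on a log scale, with the grey line marking equal reads. miR-181d-5p lies on or just under the line in all 7 libraries, while miR-181a-5p lies above it by ratios of 1.5 to 6.73.

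The make-up of the family varied among the HFD+Ni libraries more than between the group means. With miR-181b-5p and miR-181d-5p counted once, miR-181a-5p took 71.2%, 79.9%, 72.9% and 74.4% of the family's reads in HFD replicates 1 to 4. In HFD+Ni replicates 1 to 3 it took 51.7%, 85.1% and 80.9%. The lowest share, in HFD+Ni replicate 1, rested on 15 of 29 reads, with a 95% Wilson interval of 34.4% to 68.6%. That interval did not reach the 79.0% to 89.6% of HFD+Ni replicate 2. The group means were 74.6% ± 3.76 (SD, n = 4) and 72.6% ± 18.2 (SD, n = 3). The ratio of miR-181a-5p to miR-181b-5p reads was 2.87 to 4.25 in the HFD libraries and 1.5, 6.73 and 4.92 in HFD+Ni replicates 1 to 3.

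The summed level of the 4 members averaged 902 ± 293 rpm over the HFD libraries (SD, n = 4) and 1149 ± 446 rpm over those with nicotine (SD, n = 3). With miR-181d-5p left out, so that the near-identical pair counted once, the sum was 743 ± 239 rpm and 981 ± 436 rpm. On the log2 scale the summed level of the 4 was higher in HFD+Ni by 0.33, less than the SD of 0.50 within the groups, and 1 library could nearly remove the difference: leaving out HFD+Ni replicate 3 gave 0.043, leaving out HFD replicate 3 gave 0.17, and leaving out HFD+Ni replicate 1 gave 0.62.

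Set against the spread between libraries, no member passed the test of HFD+Ni against HFD. Of the 4 members, 0 passed an adjusted p of 0.05 in limma (moderated test on log2(rpm + 1) over the 387 miRNAs whose mean reached 5 rpm, Benjamini-Hochberg adjustment), against a background of 0% of all tested miRNAs. At an unadjusted p under 0.05 limma called 0 of the 4, against a background of 2.84%, and 0 had groups that did not overlap, against 5.17% (2.84% with HFD+Ni higher and 2.33% with HFD+Ni lower). The estimates of all 4 lay above 0, as did 52.7% of all tested miRNAs, and their median log2 fold change was 0.20, against 0.04 over the 387. The 4 are not separate estimates, since miR-181b-5p and miR-181d-5p may share reads, and that of miR-181c-5p rests on 29 reads. Over all miRNAs limma called 0 at the adjusted and 11 at the unadjusted threshold, edgeR 0 and 28, and DESeq2 1 and 19, the 1 being miR-1a-3p, a muscle miRNA (log2 fold change -3.42, DESeq2 adjusted p = 0.00202).

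For miR-181a-5p the log2 fold change was 0.28 (SE 0.53, adjusted p = 0.929), with a 95% interval from -0.88 to 1.43. The interval covers falls as well as rises, so the data do not show that its level stayed the same. One library decided the size and another the sign: without HFD+Ni replicate 1 the log2 fold change was 0.88 (limma adjusted p = 0.901), and without HFD+Ni replicate 3 it was -0.14. Over the 20 alternatives the adjusted p ranged from 0.768 to 0.986.

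For miR-181b-5p the log2 fold change was 0.13 (SE 0.60, limma adjusted p = 0.986), with a 95% interval from -1.17 to 1.43. It turned to -0.074 without HFD+Ni replicate 3. For miR-181d-5p it was 0.10 (SE 0.61, limma adjusted p = 0.995), with nearly the same interval, -1.24 to 1.44, and it turned to -0.063 without that library.

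miR-181c-5p had the largest estimate of the 4, a log2 fold change of 1.16 (SE 1.21, limma adjusted p = 0.830), and the widest interval, from -1.48 to 3.80. With 17 reads over all HFD libraries and 12 over all HFD+Ni libraries, the estimate depended on the settings and ranged from 0.49 to 2.96 over the 19 alternatives that gave one, all above 0 and none past the threshold. Without HFD+Ni replicate 1, the shallowest library, it was 0.72.

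**Figure D3:**
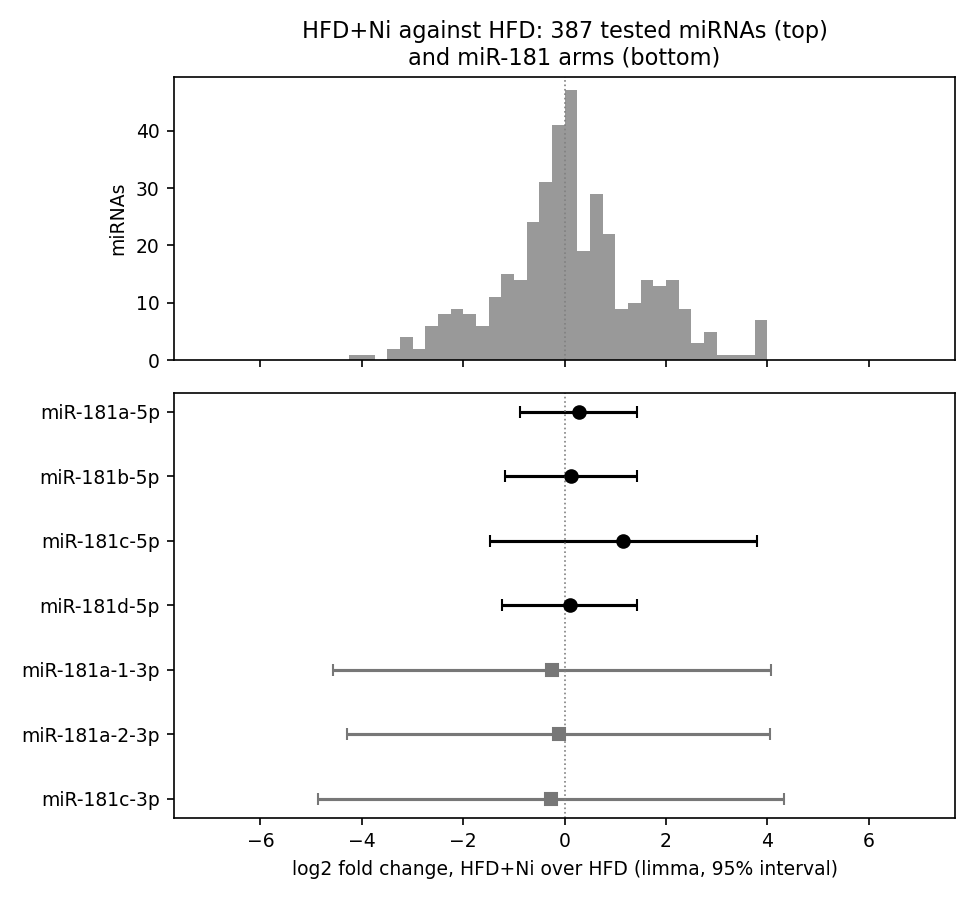
Log2 fold change of HFD+Ni over HFD (x axis) for all 387 tested miRNAs as a histogram (top, y axis the number of miRNAs) and for the miR-181 5p arms (circles) and 3p arms (squares) with limma 95% intervals (bottom). Every interval of the family crosses 0, and those of the scarce miR-181c-5p and the 3p arms are the widest.

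**Figure D4:**
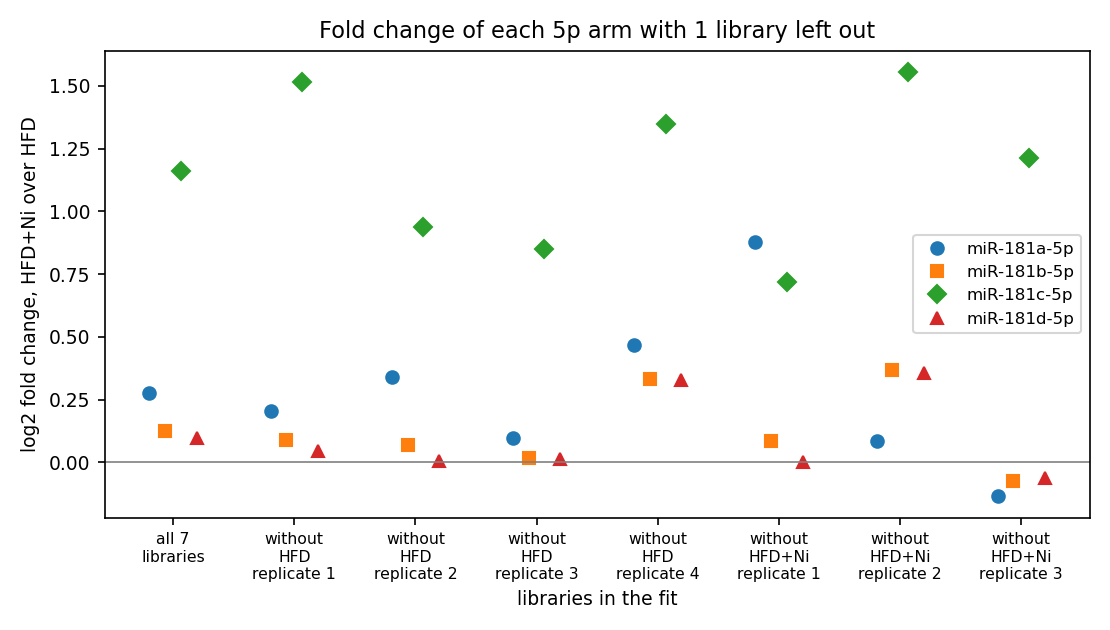
Log2 fold change of HFD+Ni over HFD (y axis) for each 5p arm with all 7 libraries and with each library left out in turn (x axis). The value for miR-181a-5p runs from -0.14 without HFD+Ni replicate 3 to 0.88 without HFD+Ni replicate 1, and miR-181c-5p, at 0.72 to 1.56, has the largest value of the 4 in every fit but that without HFD+Ni replicate 1.

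The authors' deposited table gives the same signs for the 4 members, with log2 fold changes of 0.48, 0.13, 1.17 and 0.09 for miR-181a-5p, miR-181b-5p, miR-181c-5p and miR-181d-5p. In the authors' deposited table the FDR of each was 1. The authors' deposited list of 15 changed miRNAs holds 0 members of the family. The columns of that list matched to labels are HFD replicates 1, 3 and 4 and HFD+Ni replicates 1 to 3, without HFD replicate 2, so it may rest on other libraries than the 7 used here.

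The 3p arms are the other strand of the hairpin and usually the less used one. They matter here because those of miR-181a differ between its loci, while the 5p arms do not. The 2 hairpins of miR-181a are shown for that reason, from RefSeq on GRCm38.p6, 5′ to 3′ on the plus strand, with both mature arms in capitals.
Mir181a-1, chr1:137966455-137966541: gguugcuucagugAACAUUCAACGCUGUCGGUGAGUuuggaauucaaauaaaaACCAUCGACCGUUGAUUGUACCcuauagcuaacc
Mir181a-2, chr2:38852735-38852810: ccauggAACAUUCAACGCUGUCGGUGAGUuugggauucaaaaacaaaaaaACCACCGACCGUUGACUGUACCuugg

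Of the 6 3p arms of the family, 3 had a row: miR-181a-1-3p, miR-181a-2-3p and miR-181c-3p. Over all libraries 28 reads were counted for miR-181a-1-3p from chromosome 1 and 28 for miR-181a-2-3p from chromosome 2. Most of these came from the deepest library, HFD replicate 2, with 20 and 22 reads. HFD replicate 4 had 5 and 3, HFD+Ni replicate 2 had 1 and 2, and HFD+Ni replicate 3 had 2 and 1. The other 3 libraries had none of either, which allows up to 37.1 rpm of each in HFD replicate 1, 25.5 rpm in HFD replicate 3 and 55.9 rpm in HFD+Ni replicate 1 (3 reads). How reads that fit both miR-181a 3p arms were counted is not given, so equal use of the loci is not shown.

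The 5p arm was the main arm of miR-181a. Both 3p arms together made up 4.98% of the miR-181a reads over all libraries, 56 of 1125 (95% Wilson interval 3.85% to 6.41%). This interval pools the reads, 684 of them from HFD replicate 2, and does not measure the spread between libraries. In HFD replicates 1 to 4 the share was 0%, 6.14%, 0% and 11.6%, on 0, 42, 0 and 8 reads of the 3p arms. In HFD+Ni replicates 1 to 3 it was 0%, 1.99% and 2.38%, on 0, 3 and 3 reads. The groups overlapped, and the upper Wilson bound of the 3 libraries at 0 was 9.41%, 8.20% and 20.4% in HFD replicates 1 and 3 and HFD+Ni replicate 1.

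miR-181c showed no such clear main arm. Over all libraries 14 of its 43 reads, 32.6%, were of the 3p arm (95% Wilson interval 20.5% to 47.5%). This interval also pools the reads and does not measure the spread between libraries. miR-181c-3p was read in 3 libraries only, with 5 reads in HFD replicate 2, 6 in HFD replicate 4 and 3 in HFD+Ni replicate 1. In HFD replicate 4 the 3p arm had more reads than the 5p arm, 6 against 2.

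No 3p arm passed the test in limma. miR-181a-1-3p averaged 21.0 ± 30.6 rpm without and 8.09 ± 9.52 rpm with nicotine (SD, n = 4 and 3), miR-181a-2-3p at 14.9 ± 18.8 and 6.89 ± 6.05 rpm, and miR-181c-3p at 20.7 ± 38.2 and 18.6 ± 32.3 rpm. Their log2 fold changes of -0.25, -0.11 and -0.26 each had a limma adjusted p of 0.996 and a standard error of 1.91 to 2.11. Without HFD+Ni replicate 1, which had no read of the miR-181a 3p arms and 3 of miR-181c-3p, they were 0.93, 1.05 and -2.21.

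The miRNAs of the nearest listed genes on chromosome 8 had far higher levels than those of miR-181c and miR-181d. Mir23a, Mir27a and Mir24-2 lie 29556 bases and more from Mir181c on the other strand, at chr8:84208518-84208592, chr8:84208672-84208758 and chr8:84208815-84208921, and their miRNAs are widely expressed. miR-23a-3p averaged 11173 ± 3864 rpm without nicotine and 12472 ± 6554 rpm with it (SD, n = 4 and 3), and miR-27a-3p at 2884 ± 297 and 2481 ± 648 rpm. miR-24-3p, which is also made from a second locus, was at 1023 ± 682 and 905 ± 175 rpm. These were 3 of the 6 listed neighbours, of which 5 had a row. The estimates of 2 lay above 0 and that of 1 below, against 52.7% of all tested miRNAs above 0. Their median was 0.10 on the log2 scale, and 0 passed the test. miR-23b-3p, counted separately, had nearly the level of miR-23a-3p, at 10914 ± 3735 and 12205 ± 6186 rpm. miR-27b-3p had nearly that of miR-27a-3p, at 2913 ± 308 and 2585 ± 636 rpm. How reads that fit both members of such a pair were counted is not given. These levels therefore cannot be credited to the chromosome 8 genes alone.

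Leukocytes and endothelium are the cell types in which the family is best known, and their listed miRNAs were looked at beside it. These lists, and those of NF-kB feedback and of lipid metabolism below, were chosen with earlier results of these data known. Their shares below 0 are therefore not an independent comparison with all tested miRNAs. All 8 leukocyte miRNAs had estimates below 0, against 47.3% of all tested miRNAs, with a median log2 fold change of -0.60, and 0 passed the adjusted threshold in limma. Their summed level was 7383 to 9828 rpm in HFD and 4475 to 6782 rpm in HFD+Ni, without overlap, and was lowest, at 4475 rpm, in HFD+Ni replicate 1. Taken singly, only miR-223-3p of the list had groups without overlap. Over all tested miRNAs 5.17% had, in either direction. miR-223-3p, a myeloid miRNA, was at 781 ± 108 and 385 ± 83.3 rpm, with a log2 fold change of -1.03 (limma adjusted p = 0.830), and was the 1 leukocyte miRNA past an unadjusted p of 0.05. The share past that threshold over all tested miRNAs was 2.84%, in either direction. Of the other abundant ones, miR-150-5p of lymphocytes was at 2473 ± 985 and 1852 ± 552 rpm, and miR-342-3p at 1306 ± 306 and 1203 ± 674 rpm (SD, n = 4 and 3). miR-146a-5p, which restrains NF-kB signalling, was at 2474 ± 983 and 1412 ± 229 rpm. Of the leukocyte markers, miR-142a-3p was at 0 in at least 1 library.

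Of 8 endothelial miRNAs, 5 had estimates below 0 and 3 above, against 47.3% of all tested miRNAs below 0. The median log2 fold change of the 8 was -0.11, and 0 passed the adjusted threshold in limma. Their summed level was 22527 to 34367 rpm in HFD and 15198 to 21462 rpm in HFD+Ni, again without overlap, and was set mainly by miR-126a-3p at 21834 ± 5907 and 15465 ± 3141 rpm. Taken singly, none of the 8 had groups without overlap, against 5.17% of all tested miRNAs in either direction. miR-126a-3p itself ran from 17691 to 30589 rpm in HFD and from 11935 to 17950 rpm in HFD+Ni. miR-221-3p, which restrains endothelial growth, was at 828 ± 252 and 1149 ± 108 rpm. Whether the family's reads came from leukocytes, endothelium or other cells was not tested.

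Of the 10 miRNAs of NF-kB feedback and endothelial activation, the pathway miR-181b is known to dampen, 9 had estimates below 0. The share below 0 over all tested miRNAs was 47.3%. The median log2 fold change of the list was -0.67, with 0 past the adjusted threshold in limma. miR-21a-5p was at 11900 ± 3955 and 7637 ± 1008 rpm (limma adjusted p = 0.830) and miR-126a-5p at 2532 ± 662 and 1344 ± 647 rpm (limma adjusted p = 0.830), the 2 of the list past an unadjusted p of 0.05. Of all tested miRNAs 2.84% passed that threshold, in either direction. miR-10a-5p, at 12176 ± 1686 and 14267 ± 4842 rpm, was the one with an estimate above 0. Its level was nearly that of miR-10b-5p, and how reads that fit both were counted is not given. This list shares members with the leukocyte and the endothelial list, so the 3 are not separate evidence.

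Of 9 tested miRNAs of lipid and energy metabolism 8 had estimates below 0, against 47.3% of all tested miRNAs. The median log2 fold change of the list was -0.28, with 0 past the adjusted threshold in limma. Within the list miR-103-3p was at 9500 ± 2710 and 7748 ± 2318 rpm and miR-107-3p at 9499 ± 2708 and 7745 ± 2312 rpm. These nearly equal values are not separate evidence. The most abundant members of the list were miR-143-3p at 29926 ± 16309 and 18362 ± 10105 rpm, miR-30a-5p at 20838 ± 2680 and 18899 ± 2464 rpm, and miR-26a-5p at 14074 ± 1863 and 12343 ± 3444 rpm. The estimates of the 6 tested testis and sperm markers lay above 0, as did 52.7% of all tested miRNAs. At an unadjusted p under 0.05 in limma 2 of the 6 passed, against 2.84% of all tested miRNAs in either direction. The testis and sperm markers had a summed level of 597 to 1077 rpm in HFD and 1200 to 2276 rpm in HFD+Ni. The striated muscle markers summed to 4301 and 4025 rpm in HFD replicates 2 and 4 and to between 762 and 1156 rpm elsewhere. HFD replicate 4 was also the highest HFD library for miR-181a-5p and miR-181b-5p, and the part of other tissues in these values was not tested.

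miR-181a-5p and miR-181b-5p, made side by side from the same loci, were only weakly correlated across the libraries. Their log2 levels had a Pearson correlation of 0.36 over the 7 libraries, the 52nd highest for miR-181a-5p among 200 other miRNAs averaging 50 rpm or more. The Poisson intervals of miR-181b-5p overlapped in all 7 libraries, so these values cannot show whether the levels of these neighbours vary together. The 5 miRNAs most like miR-181a-5p were miR-99a-5p (r = 0.93), miR-100-5p (0.93), miR-451a (0.91), miR-342-3p (0.88) and miR-378d (0.87). All 5 were lowest in HFD+Ni replicate 1, as miR-181a-5p was. miR-99a-5p was at 1100 rpm there against 1515 to 3661 rpm in the other libraries, and miR-342-3p at 485 rpm against 1081 to 1821 rpm. miR-99a-5p and miR-100-5p had the same level in HFD replicates 1 and 3 and HFD+Ni replicates 1 and 3.

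miR-181b-5p was most like miR-181d-5p (r = 0.98), then miR-92b-3p (0.95), miR-541-5p (0.80), miR-146b-5p (0.77) and miR-16-5p (0.75). miR-92b-3p was at 61.9, 43.6, 42.6 and 104 rpm in HFD replicates 1 to 4 and at 74.6, 34.1 and 83.6 rpm in HFD+Ni replicates 1 to 3, highest in HFD replicate 4 and lowest in HFD+Ni replicate 2 as miR-181b-5p was. These correlations describe 7 points that share library, depth and scaling to the same total, and they carry no test.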

How the data were processed

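Small RNA reads of 7 vesicle libraries had been turned by the authors into a table of 820 miRNAs. Its deposited values, named as TPM, are RPM: each column sums to 1000000, and whole reads were recovered for 100% of values within 0.1 read. Per the submitters' processing notes the build was GRCm38 (mm10) and edgeR was used, and for aligner, counter and miRNA annotation the sources used here name nothing. The authors' deposited p-values, FDR and log2 fold changes (positive where HFD+Ni is higher) are quoted where named. In the deposited list of 15 miRNAs, 1 value column matched no label and was not used, and no column is named for HFD replicate 2.

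The 2 groups were tested with R 4.3.3 and limma 3.58.1 using log2(rpm + 1) and a mean-variance trend, over miRNAs averaging 5 rpm or more, two-sided, with Benjamini-Hochberg adjustment over all tested. edgeR 4.0.16 and DESeq2 1.42.0 on recovered reads, other pseudocounts, filters and scalings, thinning, library weights, a replicate block and fits without single libraries were alternatives. The fit was tested on simulated data. Named miRNAs are the members, the 3p arms, the 3 most abundant and any at unadjusted p under 0.05 in each of 6 lists, and the 5 most correlated with miR-181a-5p and with miR-181b-5p. Members and lists were chosen with earlier results of these data known.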

Additional observations from a re-analysis of the deposited data

Results flagged for a closer look

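Among 45 values looked at in the 4 HFD libraries, 4 had 1 library far from the rest by Dixon's gap ratio, and chance flags about 1 in 20. In all 4 cases the library was HFD replicate 4. miR-181d-5p was at 247 rpm there against 125 to 136 rpm in the other HFD libraries (gap ratio 0.909). miR-181c-3p was at 77.9 rpm there on 6 reads, against 0, 4.74 and 0 rpm (0.939). miR-126a-3p was at 30589 rpm against 17691 to 19864 rpm (0.832), and miR-541-5p at 130 rpm on 10 reads against 68.1 to 74.2 rpm (0.901).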

How the results depend on the processing

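No alternative brought any of the 4 members, or any 3p arm, past the adjusted threshold. limma, under each of its settings, and edgeR called 0 miRNAs, and DESeq2 called 1, which was none of the family. With 1 library left out in turn the log2 fold change ranged from -0.14 to 0.88 for miR-181a-5p, -0.074 to 0.37 for miR-181b-5p, 0.72 to 1.56 for miR-181c-5p and -0.063 to 0.36 for miR-181d-5p. It ranged from -1.22 to 0.93 for miR-181a-1-3p, -0.93 to 1.05 for miR-181a-2-3p and -2.21 to 1.10 for miR-181c-3p, and from 0.04 to 0.62 for the summed level. miR-181d-5p also turned in edgeR (-0.041) and with both HFD replicate 2 and HFD+Ni replicate 1 left out (-0.091), where miR-181a-1-3p was at 1.502, miR-181a-2-3p at 1.72 and miR-181a-5p at 0.94. Library weights gave 1.07 and 1.15 for miR-181a-1-3p and miR-181a-2-3p, and 0.80 for miR-181a-5p. The sign of miR-181a-2-3p turned with a pseudocount of 0.5 rpm (0.024) and with scaling to reads outside let-7 (0.12, an alternative chosen after seeing the data), and that of miR-181c-3p with thinning (0.30). The cause of these turns was not tested. The replicate numbers showed no pairing of the libraries: same-numbered libraries correlated at 0.016, 0.19 and -0.099 in their deviations, and 1 of 3 HFD+Ni libraries correlated best with its own number. So few libraries cannot exclude a pairing. The replicate block gave 0.47, 0.33, 1.35 and 0.33 for miR-181a-5p, miR-181b-5p, miR-181c-5p and miR-181d-5p, 0.91, 0.85 and 1.10 for miR-181a-1-3p, miR-181a-2-3p and miR-181c-3p, and 0 calls. A filter at 50 rpm gave no value for miR-181c-5p and the 3p arms. Depth limits miR-181c-5p and the 3p arms most, since 1 read in the shallowest library is 18.6 rpm.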
